A study of Homo sapiens with 7 samples.

Results

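Dense FOXA1 regions of LNCaP cells are stretches of the genome in which FOXA1 peaks lie in close succession. They were built from the FOXA1 peak list of LNCaP cells given DMSO. Peaks on chromosomes 1 to 22 and X were joined wherever the gap to the next peak start was at most 12.5 kb, and joined stretches of 8 or more peaks were kept. This gave 85 regions out of 52955 stretches, and they held 779 of the 79741 DMSO peaks. Members were thus selected on the positions of the DMSO peaks, so the number, density and span of DMSO peaks in them follow from that choice and are given as a description, with no test.

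Chromatin immunoprecipitation followed by sequencing was done in LNCaP and 22Rv1 cells (CWR22-Rv1 in the labels), both established human prostate cancer lines. The 3 LNCaP libraries hold FOXA1 chromatin after 4 hours with GSK2879552, with GSK2879552 plus PFI-2, or with DMSO. The 22Rv1 libraries hold FOXA1 chromatin of cells with a hairpin against SETD7 (shSETD7), of cells with a control hairpin (shCTL) and of vehicle cells, and SETD7 chromatin of vehicle cells. Each group is 1 library with its own peak list on build hg19, so no difference between conditions could be tested, and the read depth behind the lists is unknown. Lists held 63866 peaks with GSK2879552, 83352 with the combination, 63682 with shSETD7, 83633 with shCTL, 65093 in vehicle cells and 25363 for SETD7 on the same chromosomes. Peaks of the vehicle FOXA1 list are named siNTC in the file, a tag absent from the labels. The treatment label of the combination reads as with or without PFI-2. Both libraries are called here by their sample titles.

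FOXA1 is a forkhead transcription factor that binds closed chromatin and opens it for other factors. In the luminal cells of the prostate it marks enhancers and works with the androgen receptor. Neighbouring peaks of one factor can belong to one extended regulatory element or to several, and stitching by distance does not tell these apart. GSK2879552 inhibits the lysine demethylase LSD1, and PFI-2 inhibits SETD7, a lysine methyltransferase whose action on FOXA1 is the subject of the study.

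The 85 regions were short stretches with a modest number of peaks. They held 8 to 16 DMSO peaks with a median of 9, and 38 of them had the minimum of 8. Just below the limit, another 85 stretches held 7 peaks. The regions spanned 23.3 to 117 kb with a median of 50.8 kb and covered 4.42 Mb together. They lay on 20 of 23 chromosomes, with none on chromosomes 13, 17 and 19. Chromosome 6 had 11 regions and chromosome 10 had 10, which is 12.9% and 11.8% of the regions, against 6.58% and 4.93% of all DMSO peaks. Most lay far apart, with a median of 10793 kb to the next dense region on the same chromosome among the 82 that had one, but 2 pairs on chromosomes 9 and 12 were separated by 45.5 and 43.7 kb.

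Density of peaks did not go with high peak scores. The score is the authors' own value for each peak and was used only within a list. The median DMSO score was 222 for peaks in dense regions and 215 outside, and median widths were 332 and 333 bp. Of the dense-region peaks, 9.24% were in the top decile of DMSO scores and 8.73% in the lowest decile. Regions differed in their strongest peak: the highest score of a region ranged from 238 to 2653 (median 842), and the median score of a region from 116 to 533. In 49 regions the strongest peak reached the top decile of the list (score 766 or more).

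The region with most DMSO peaks, 16, was on chromosome 12, and another region with 13 lay close to it. The region from 81880674 to 81997485 had 12 peaks with GSK2879552, 13 with the combination and 16 with DMSO, and 3 with shSETD7, 10 with shCTL, 6 in vehicle cells and 2 for SETD7. The region from 81774259 to 81836992 had 9, 11 and 13 peaks in the LNCaP lists in that order, and 1 with shSETD7, 10 with shCTL, 7 in vehicle cells and none for SETD7. Its strongest DMSO peak, from 81775589 to 81776128, scored 2082. In both regions the shSETD7 list held fewer peaks than the shCTL and vehicle lists.

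On chromosome 6, one of 2 large regions was nearly empty in 22Rv1. From 134268592 to 134351315 there were 10 peaks with GSK2879552, 11 with the combination and 15 with DMSO, and 3 with shSETD7, 7 with shCTL and 8 in vehicle cells. From 165828714 to 165914112 there were 10, 10 and 12 peaks in the LNCaP lists in that order, and 0 with shSETD7, 2 with shCTL and 3 in vehicle cells. The second region thus held at most 3 peaks in any 22Rv1 FOXA1 list, against 10 or more in LNCaP. Counts were likewise low in 22Rv1 on chromosome 21 from 17522016 to 17579616, where GSK2879552, the combination and DMSO had 7, 9 and 11 peaks, and shSETD7, shCTL and vehicle cells 0, 3 and 4. By contrast, chromosome 5 from 90162751 to 90243923 had 10, 12 and 13 peaks in LNCaP and 3 with shSETD7, 11 with shCTL and 6 in vehicle cells. Chromosome 7 from 12610131 to 12690060 had 8, 9 and 12 in LNCaP and 6, 10 and 4 in 22Rv1, and 2 SETD7 peaks. The regions described on chromosomes 5, 6 and 21 had no SETD7 peak.

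**Figure D1:**
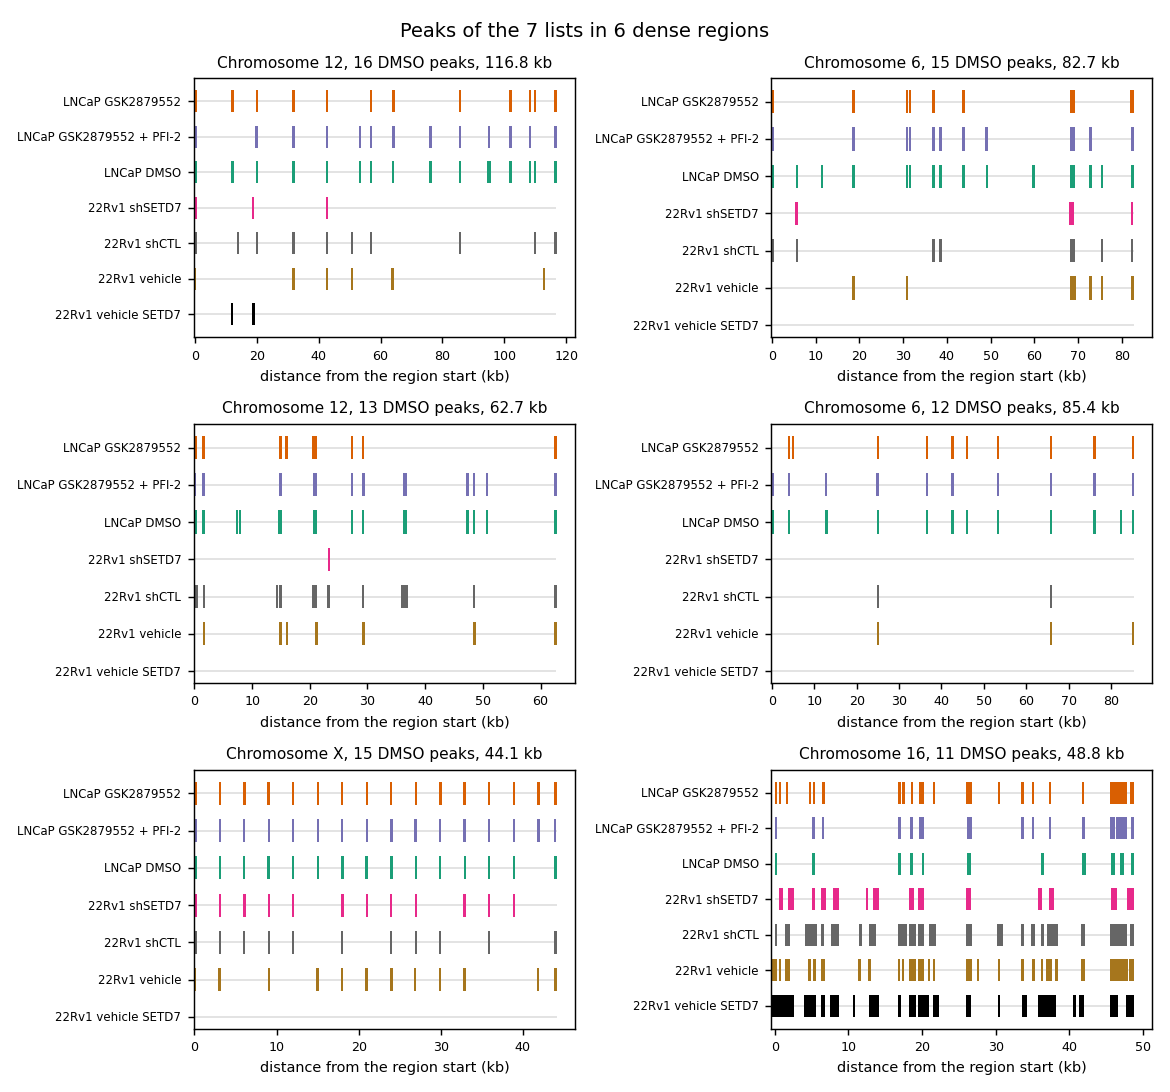
Peaks of the 7 lists (rows) in 6 dense regions, as distance from the region start in kb. Each mark is 1 peak, widened where needed to stay visible. On chromosome 12 the shSETD7 row holds 3 peaks and 1 peak where the DMSO row holds 16 and 13, on chromosome X the FOXA1 rows repeat at an even distance, and on chromosome 16 the SETD7 row holds 18 peaks spread over the region.

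Across the 85 regions, every other list held fewer peaks than the DMSO list that chose them. The GSK2879552 list had 3 to 20 peaks per region with a median of 7 and a total of 619, and the combination had 5 to 16 with a median of 8 and a total of 732, against 779 DMSO peaks. The shSETD7 list had 0 to 14 (median 3, total 302), shCTL 0 to 20 (median 5, total 474) and vehicle cells 0 to 26 (median 4, total 393). GSK2879552 peaks were fewer than DMSO peaks in 70 regions, equal in 8 and more in 7. Combination peaks were fewer in 40, equal in 32 and more in 13. Stretches of 4 to 7 DMSO peaks, of which there were 2162, had fewer peaks with GSK2879552 in 71.7% of cases and with the combination in 35.5%. In 22Rv1 the count was below that of DMSO in 82 dense regions with shSETD7, 73 with shCTL, 80 in vehicle cells and 83 for SETD7, and in 95.3%, 83.5%, 91.0% and 99.3% of the stretches of 4 to 7 peaks. These stretches have fewer peaks to lose, so the shares are a background and not a match. Relative to the DMSO peaks in them, dense regions held 0.795 times as many GSK2879552 peaks and 0.940 times as many combination peaks, and stretches of 4 to 7 peaks 0.745 and 0.928 times. The whole lists stood at 0.801 and 1.05 times the DMSO list.

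A lower count in the lists that did not choose the regions was also seen the other way round. With the same gap and minimum, the combination list gave 100 regions with 909 of its peaks, in which the DMSO list had 817, or 0.899 times as many, although the DMSO list was 0.957 times as long. The GSK2879552 list gave 41 regions with 415 peaks, in which the DMSO list had 330, or 0.795 times, although it was 1.25 times as long. Whichever LNCaP list chose the regions, both other LNCaP lists held fewer peaks in them in total.

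**Figure D2:**
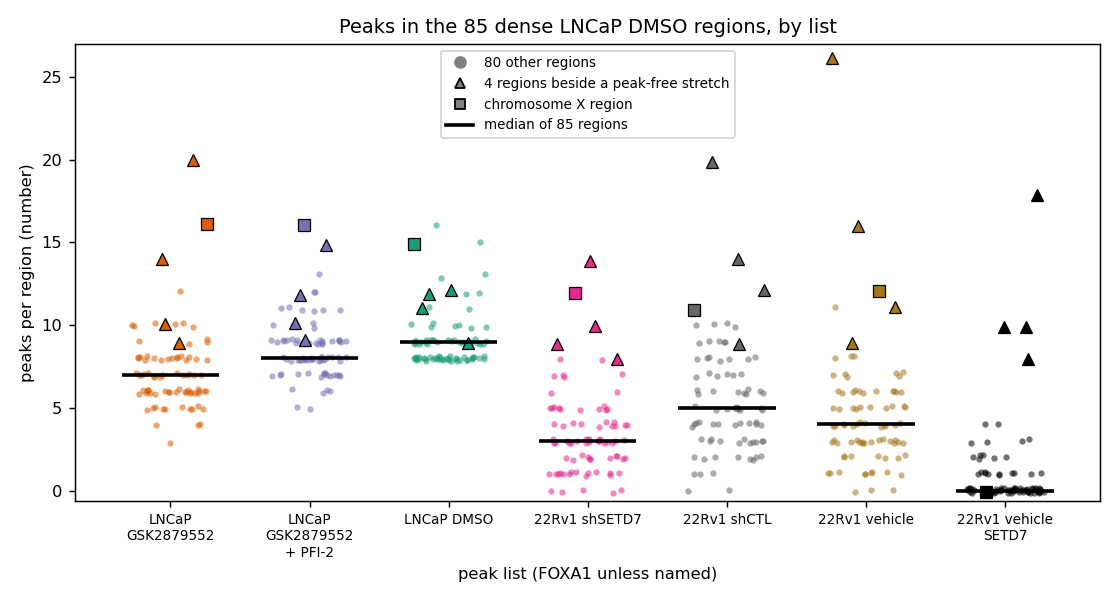
Number of peaks in each of the 85 dense regions (points, shifted slightly for visibility) by list, with the median as a bar. Triangles are the 4 regions beside a peak-free stretch and the square is the evenly spaced chromosome X region. The medians are 7, 8 and 9 in the LNCaP lists and 3, 5 and 4 in the 22Rv1 FOXA1 lists. In the 22Rv1 FOXA1 lists the triangles and the square lie at 8 or more peaks, above the medians.

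A group of 4 regions, chosen by position after the data were seen, stood apart. On each chromosome the longest stretch without a peak in any of the 7 lists was located. As background, sequence at centromeres is repetitive and largely unassembled in this build. Regions on chromosome 2 from 92269037 to 92307559, chromosome 10 from 42384817 to 42418481, chromosome 11 from 51569936 to 51593219 and chromosome 16 from 46386764 to 46435568 lay within 100 kb of this stretch, which measured 3.04, 3.20, 3.12 and 11.1 Mb there. The next closest of the 85 regions lay 1.42 Mb away, on chromosome 14, where the longest stretch measured only 0.497 Mb. On chromosomes 13, 15 and 22 it measured 0.269, 0.498 and 0.359 Mb. The stretches were found from peaks alone and are not taken to be centromeres. These 4 regions held 46 of the 89 SETD7 peaks found in dense regions, with 8, 10, 10 and 18 each. Of their 44 DMSO peaks, 41 overlapped a SETD7 peak, 35 an shSETD7 peak, 42 a shCTL peak and 44 a vehicle FOXA1 peak, and 43 overlapped a GSK2879552 peak and 41 a combination peak. Over all DMSO peaks these shares were 0.846% for SETD7, 28.1% for shSETD7, 47.9% for shCTL, 39.2% for vehicle cells, 71.2% for GSK2879552 and 88.6% for the combination. The 46 SETD7 peaks there had a median score of 1702 and a highest of 43885, against a median of 28 over the SETD7 list. The same places were thus peaks with either antibody and in both lines. How much of the signal in them is particular to FOXA1 was not tested.

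Another region, on chromosome X from 114959728 to 115003854, was set apart after its values were seen. Its 15 DMSO peaks were weak, with scores of 91 to 238, and evenly spaced, at a median of 2980 bp from midpoint to midpoint. Of the 14 steps between them, 13 were between 2900 and 3100 bp and 1 was 5086 bp. The coefficient of variation of its spacing was 0.180, against a median of 0.593 over the 85 regions. A region of chromosome 1 from 149783913 to 149857469 also had 0.180, with 7 steps of 7943 to 12802 bp, so the coefficient alone does not set the array apart. The GSK2879552 and combination lists each had 16 peaks there with 14 of 15 steps in the same range. The shSETD7, shCTL and vehicle lists had 12, 11 and 12 peaks at medians of 2996, 3019 and 3005 bp, and steps near the double distance, 5900 to 6100 bp, occurred 2, 3 and 2 times. Of the 15 DMSO peaks, 15 overlapped a GSK2879552 peak, 15 a combination peak, 12 an shSETD7 peak, 11 a shCTL peak and 11 a vehicle peak, and the region had no SETD7 peak. The remaining 80 regions had median spacings of 2275 to 10758 bp.

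Outside the 4 regions beside a peak-free stretch, DMSO FOXA1 peaks rarely overlapped a SETD7 peak, as was the case over the whole DMSO list. These lists come from different cell lines, and overlap of SETD7 peaks with FOXA1 peaks of their own line was not counted. The other 81 regions held 43 SETD7 peaks, and 23 of the 81 had at least 1. Of their 735 DMSO peaks, 1 overlapped a SETD7 peak, against 0.846% of all DMSO peaks. At equal peak score the difference from peaks outside dense regions was −0.676 points (−1.85 to 0.497), an interval that includes 0. Per Mb, the 80 regions that remain without the chromosome X array had 10.2 SETD7 peaks, against 8.34 over the rest of the genome, or 1.22 times. For FOXA1 the corresponding ratios were 6.23 with GSK2879552, 5.81 with the combination, 6.54 with DMSO, 2.82 with shSETD7, 3.52 with shCTL and 3.53 in vehicle cells. Of the 43 SETD7 peaks, 34 were on chromosomes 1, 3, 7, 8 and 12, which hold 28 of the 85 regions and 70.2% of the whole SETD7 list. These chromosomes were picked after the counts were seen. The median score of the 43 SETD7 peaks was 25, against 28 over the list. The most SETD7 peaks in a region away from a peak-free stretch, 4, were on chromosome 1 from 221377530 to 221420771 and chromosome 3 from 111436509 to 111501009.

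**Figure D3:**
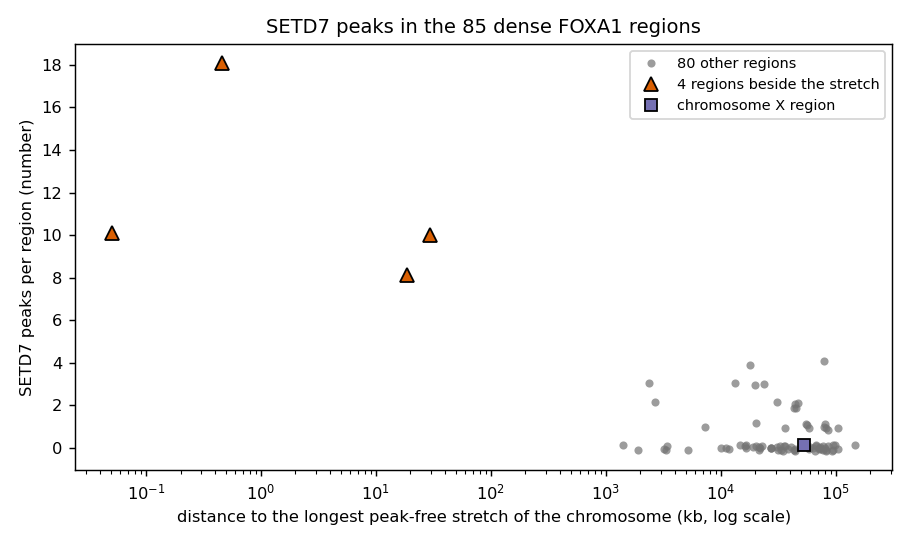
Number of SETD7 peaks in each of the 85 dense regions against the distance to the longest peak-free stretch of its chromosome (kb, log scale), with points shifted slightly up or down for visibility. The 4 regions within 100 kb hold 8 to 18 SETD7 peaks each, and the other 81 hold at most 4.

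Dense regions were then compared with the rest of the DMSO list at equal peak score. A DMSO peak counted as kept in another list when it overlapped a peak there by at least 1 bp. The outside share was weighted to the scores of the dense-region peaks in 20 score groups. Intervals are 95% Wilson intervals for shares and binomial intervals for differences. The latter use smoothed shares in each score group, which widens them where overlaps are rare, as for SETD7. Both kinds of interval cover counting error only, and peaks of 1 region share their source. Over all DMSO peaks, 71.2% were kept with GSK2879552, 88.6% with the combination, 28.1% with shSETD7, 47.9% with shCTL, 39.2% in vehicle cells and 0.846% overlapped a SETD7 peak.

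In LNCaP the peaks of dense regions were kept about as often as score-matched peaks elsewhere. With GSK2879552, 581 of 779 were kept, or 74.6% (71.4 to 77.5), against 72.4% of matched peaks outside, a difference of 2.18 points (−0.459 to 4.82). With the combination, 702 were kept, or 90.1% (87.8 to 92.0), against 89.3% outside, a difference of 0.788 points (−1.26 to 2.83). Without the 4 regions beside a peak-free stretch and the chromosome X array, the difference was 0.116 points with GSK2879552 (−2.64 to 2.87) and 0.457 points with the combination (−1.70 to 2.61). None of these intervals excluded 0. The regions left out were chosen after the data were seen, and some of them kept the most GSK2879552 peaks against expectation. The differences without them therefore set no limit for dense regions as a whole. Over all 85 regions, counting a peak within 1 kb as kept gave 4.02 points with GSK2879552 (1.43 to 6.61) and 2.03 with the combination (0.0891 to 3.96), intervals above 0. Both lists had more peaks per Mb in the regions than elsewhere, and how far this bears on the 1 kb values was not tested. In the higher-scoring 50% of each list the difference was 4.49 points with GSK2879552 (0.541 to 8.45) and 1.07 with the combination (−1.81 to 3.96). With equal-sized FOXA1 lists it was 1.98 with GSK2879552 (−0.760 to 4.72) and 2.55 with the combination (0.261 to 4.84).

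The joint pattern over the treated libraries was also close to that outside. Of the 720 DMSO peaks in the 80 regions, 509 were kept with both treatments (70.7%, against 70.5% of matched peaks outside). Another 137 were kept with the combination only (19.03% against 18.81%), 14 with GSK2879552 only (1.94% against 2.07%) and 60 with neither (8.33% against 8.67%). Of the 197 peaks without a GSK2879552 peak, 137 were present with the combination, or 69.5% (62.8 to 75.5), against 68.9% outside. The presence of GSK2879552-missing peaks in the combination list was thus not detectably different in dense regions, with a difference of 0.593 points (−5.71 to 6.90).

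In 22Rv1 the shares of the FOXA1 lists were higher in dense regions with all 85 regions included and lower without the 5 set apart, and the interval of each of these differences included 0. The shSETD7 list held 241 of the 779 DMSO peaks, or 30.9% (27.8 to 34.3), against 27.99% of matched peaks outside, a difference of 2.95 points (−0.242 to 6.13). The shCTL list held 397, or 51.0% (47.5 to 54.5), against 47.9%, a difference of 3.04 points (−0.276 to 6.36). The vehicle list held 326, or 41.8% (38.4 to 45.3), against 39.4%, a difference of 2.47 points (−0.811 to 5.76). Without the 5 regions the differences turned below 0, to −1.27 points with shSETD7 (−4.45 to 1.92), −0.442 with shCTL (−3.85 to 2.97) and −2.05 in vehicle cells (−5.36 to 1.27). For SETD7 itself, 42 of the 779 peaks overlapped, or 5.39% (4.01 to 7.21), against 0.811% outside, and without the 5 regions 1 of 720, or 0.139% (0.0245 to 0.782), against 0.811%. The SETD7 difference was 4.58 points with all regions (2.75 to 6.41) and −0.672 without the 5 (−1.87 to 0.525). With the chromosome X array kept and only the 4 regions beside a peak-free stretch left out, the shCTL difference was 0.301 points (−3.09 to 3.69). Some other settings gave intervals above 0 over all 85 regions: when a peak within 1 kb counted as kept, the difference was 6.55 points for shSETD7 (3.19 to 9.92), 5.52 for shCTL (2.20 to 8.85) and 5.11 for vehicle cells (1.76 to 8.46). These lists too had more peaks per Mb in the regions, and how far this bears on the 1 kb shares was not tested. At 1 kb the shSETD7 share was 38.4% inside and 31.8% outside. Settings without a wider reach also gave intervals above 0. In the higher-scoring 50% of each list the difference was 4.84 points for shSETD7 (0.300 to 9.38), 3.86 for shCTL (−0.814 to 8.52) and 5.46 for vehicle cells (0.744 to 10.2). With equal-sized FOXA1 lists only the shCTL interval excluded 0, at 3.96 (0.273 to 7.64). With 10 score groups by chromosome only the shSETD7 interval did, at 3.56 (0.401 to 6.72).

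Among dense-region DMSO peaks also found with shCTL, the control hairpin, the share found with shSETD7 was not detectably different from that elsewhere. In the 80 regions, 176 of 344 such peaks were found with shSETD7, or 51.2% (45.9 to 56.4), against 52.2% of matched peaks outside. In vehicle cells 227 of the 344 were found, or 66.0% (60.8 to 70.8), against 70.2%. The difference was −1.04 points with shSETD7 (−6.22 to 4.13) and −4.25 in vehicle cells (−9.12 to 0.620). The vehicle list, which has no hairpin, thus also lacked part of the peaks found with shCTL.

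**Figure D4:**
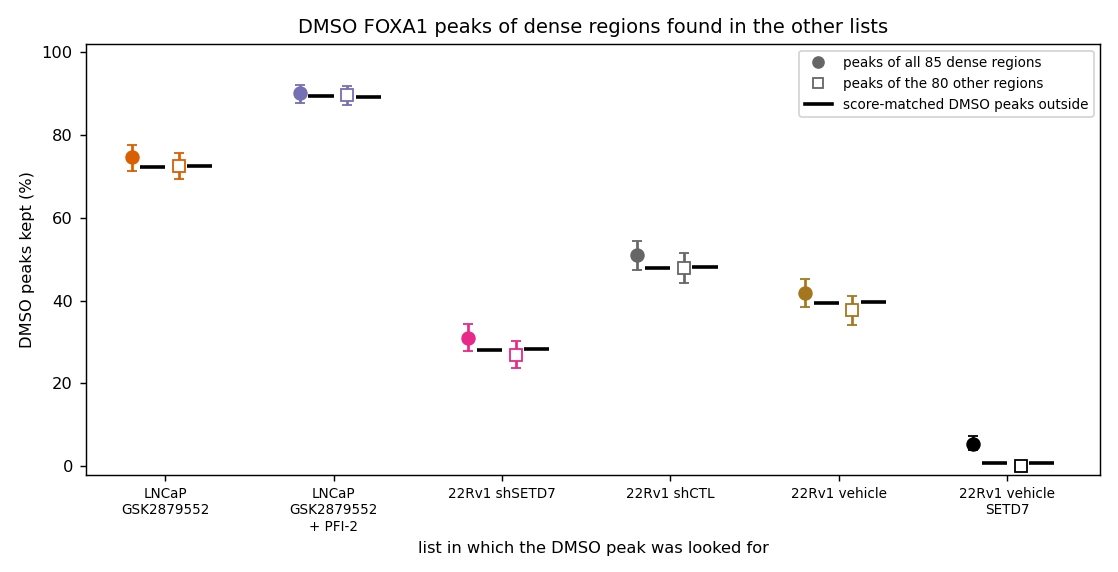
Share of DMSO FOXA1 peaks (%) found in each other list, for all 85 dense regions (filled circles) and for the 80 regions without those set apart (open squares), with 95% Wilson intervals. Black bars are score-matched DMSO peaks outside dense regions. In the FOXA1 lists each bar lies inside the interval of its point, while for SETD7 the filled circle at 5.39% drops to 0.139% in the 80 regions.

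Shares kept were compared by the number of peaks in a stretch at equal score. Standardised to the scores of all DMSO peaks, the share kept with GSK2879552 was 71.2% for peaks alone in their stretch, 71.2% for stretches of 2 to 3 peaks, 71.2% for 4 to 7 and 73.3% for 8 or more. With the combination these shares were 88.1%, 89.0%, 89.2% and 89.4%. With shSETD7 they were 28.6%, 27.7%, 27.2% and 30.9%, with shCTL 47.9%, 47.6%, 48.4% and 50.7%, and in vehicle cells 39.9%, 38.6%, 38.8% and 41.7%. The step at 8 or more peaks includes the 5 regions set apart. At the limit itself, without score matching, peaks of the 38 regions with 8 (median score 251.5) were kept with GSK2879552 in 77.6% of cases and with shCTL in 44.1%, and peaks of the stretches with 7 (median score 232) in 71.4% and 54.1%. In the same order, the shares were 91.8% and 90.6% with the combination, 31.25% and 30.4% with shSETD7, and 35.5% and 42.0% in vehicle cells.

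Within the regions, being kept went with the score of the peak. The 720 peaks of the 80 regions were split into 4 groups of 180 by score. The weakest group, with scores of 50 to 136, was kept with GSK2879552 in 63 of 180 cases (interval 28.4% to 42.2%) and with the combination in 65.0% (57.8 to 71.6). The strongest group, with scores of 417 to 2653, was kept in 98.9% of cases with GSK2879552 (96.0 to 99.7) and in all 180 with the combination. With shSETD7 the weakest and strongest groups gave 18.3% (13.4 to 24.6) and 38.9% (32.1 to 46.2), and with shCTL 27.8% (21.8 to 34.7) and 72.8% (65.9 to 78.8). Matched peaks outside followed the same course, with 33.9% and 99.5% for GSK2879552 and 19.95% and 43.08% for shSETD7. The strongest peak of a region was kept in 79 of 80 regions with GSK2879552 and in 80 with the combination, and in 41 with shSETD7, 65 with shCTL and 55 in vehicle cells. In LNCaP, peaks absent after treatment were thus mostly the weak ones of a region.

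**Figure D5:**
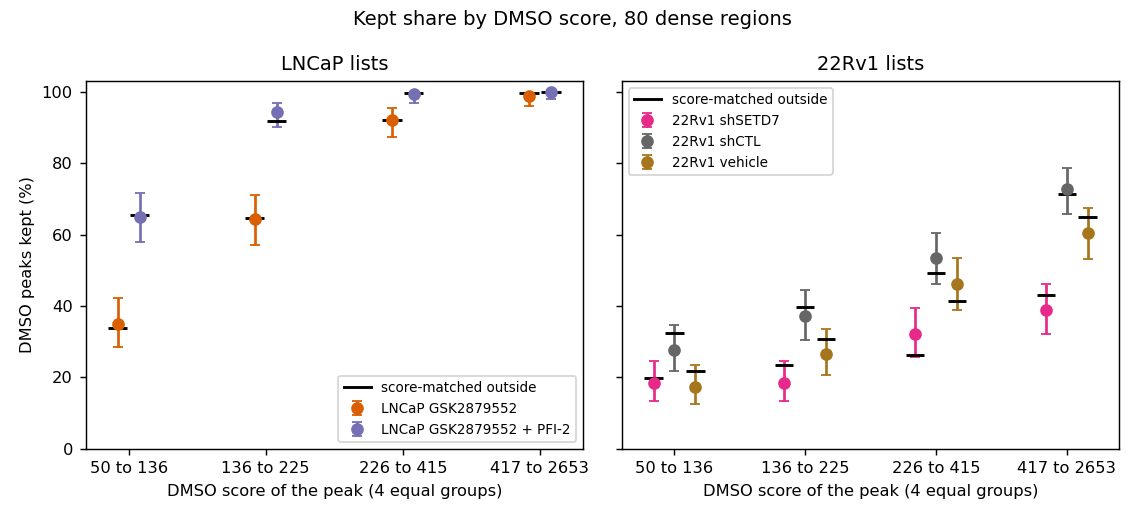
Share of DMSO peaks kept (%) in the 80 dense regions by DMSO score in 4 groups of equal size, with 95% Wilson intervals, and score-matched peaks outside as black bars. LNCaP lists are on the left and 22Rv1 lists on the right. With GSK2879552, 63 of 180 peaks are kept in the weakest group and 178 in the strongest, and the bars outside stand at 33.9% and 99.5%.

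The place of a peak in its region was compared as well. In the 80 regions, first and last peaks were found with shSETD7 in 61 of 160 cases, or 38.1% (31.0 to 45.8), which is 9.56 points above matched peaks outside. Inner peaks were found in 133 of 560, or 23.8% (20.4 to 27.4), which is 4.36 points below. With GSK2879552 the shares were 75.6% (68.4 to 81.6) for first and last peaks and 71.8% (67.9 to 75.4) for inner peaks. With shCTL they were 53.8% and 46.1%, and in vehicle cells 41.3% and 36.6%. The contrast with shSETD7 was the widest of the 6 lists and was noticed among several such splits.

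Single regions departed from what their scores would give by a few peaks. The expected number comes from matched peaks outside. With GSK2879552 the 80 regions ranged from 2.57 kept peaks fewer than expected to 2.55 more, and 44 of 80 were above. The fewest against expectation were in the region of chromosome 6 from 134268592 described above, on chromosome 12 from 20134873 to 20184146, in the region of chromosome 12 from 81774259, on chromosome X from 23890084 to 23949795 and on chromosome 4 from 108575527 to 108633689. On chromosome 12 from 20134873 the lists had 5 peaks with GSK2879552, 9 with the combination and 9 with DMSO. On chromosome 4 they had 5, 9 and 10, and on chromosome X 3, 5 and 9. All 9 DMSO peaks of that chromosome 12 region were kept with the combination, while the chromosome X region kept 3 with GSK2879552 and 5 with the combination.

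The regions with most kept GSK2879552 peaks against expectation included 3 of the 5 set apart, with the chromosome X array first at 6.60 more than expected and chromosome 16 second at 4.52. The other 2 were on chromosome 18 from 10213482 to 10256648, with 8, 8 and 9 peaks for GSK2879552, the combination and DMSO, and on chromosome 10 from 123753636 to 123804520, with 10, 7 and 8. The chromosome 18 region was 2.55 kept peaks above expectation and the chromosome 10 region 2.21. The chromosome 18 region kept 8 of its 9 DMSO peaks with GSK2879552 and the chromosome 10 region all 8.

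With shSETD7 the spread between regions was wider than with GSK2879552, from 3.90 fewer than expected to 4.73 more over the 80 regions, with 35 above. The other 22Rv1 FOXA1 lists had similar ranges, at −4.96 to 4.55 with shCTL and −4.25 to 3.83 in vehicle cells. The lowest with shSETD7 were the regions described on chromosome 12 from 81774259, chromosome 6 from 165828714, chromosome 21 and chromosome 5, and chromosome 8 from 62918658 to 62959584. The last of these had 1 peak with shSETD7, 1 with shCTL and 2 in vehicle cells, against 6 with GSK2879552, 9 with the combination and 9 with DMSO. At the chromosome 6, 8 and 21 regions shCTL and vehicle cells were below expectation too, by 4.05, 4.96 and 3.83 kept peaks for shCTL. At the chromosome 12 and chromosome 5 regions shCTL was above expectation, by 1.47 and 1.31, while vehicle cells differed from expectation by 0.575 at the chromosome 12 region and −0.684 at the chromosome 5 region. The highest with shSETD7 were the chromosome X array and 3 of the 4 regions beside a peak-free stretch, on chromosomes 2, 10 and 11. The next was chromosome 10 from 102098260 to 102152507, with 7 peaks with shSETD7, 7 with shCTL and 5 in vehicle cells, against 9 with DMSO.

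Dense regions met the same rule more often in the combination list than in the others. The combination list had 100 dense regions, and 55 of the 85 DMSO regions (64.7%) overlapped one, as did 55 of the 100. The GSK2879552 list had 41, and 21 DMSO regions overlapped one (24.7% of the DMSO regions and 51.2% of the GSK2879552 regions). List length bears on these counts, since the GSK2879552 list was 0.801 times and the combination list 1.05 times as long as the DMSO list. With FOXA1 lists cut to equal size, 12 of 28 DMSO regions were found again with GSK2879552 and 18 of 28 with the combination. Of the 85, 19 were dense in all 3 LNCaP lists, 36 in DMSO and the combination but not GSK2879552, 2 in DMSO and GSK2879552 only, and 28 in DMSO alone. In 22Rv1, 8 of the 85 overlapped one of 93 shSETD7 regions, 20 one of 223 shCTL regions and 10 one of 86 vehicle regions. A total of 63 were dense in no 22Rv1 FOXA1 list, and 5 were dense in all 6 FOXA1 lists. As 38 regions had exactly 8 DMSO peaks and 28 had 9, a difference of 1 or 2 peaks decides whether a region meets the rule in another list.

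Peaks of the other FOXA1 lists inside dense regions were mostly at DMSO peaks. SETD7 peaks were not: in the 80 regions 42 of 43 had no DMSO peak, or 97.7%, against 97.6% outside dense regions. In the 80 regions, 18 of 550 GSK2879552 peaks had no DMSO peak, or 3.27%, against 10.3% of GSK2879552 peaks outside dense regions, and 26 of 670 combination peaks, or 3.88% against 15.3%. In 22Rv1, 60 of 249 shSETD7 peaks had none (24.1% against 65.4%), 71 of 408 shCTL peaks (17.4% against 55.03%) and 44 of 319 vehicle peaks (13.8% against 51.9%). These shares were not matched for score or for the higher density of DMSO peaks in the regions. How far score or density bears on them was not tested. FOXA1 peaks of 22Rv1 lying in the 80 regions ranked above the middle of their own lists, at a median score percentile of 70.6 for shSETD7, 66.1 for shCTL and 62.5 for vehicle cells, against 55.1 for GSK2879552, 58.9 for the combination and 52.1 for DMSO. The 22Rv1 peaks in these regions thus lay further above the middle of their lists than the LNCaP peaks did. Most of them were at DMSO peaks, and 22Rv1 peaks at DMSO peaks outside the regions were not ranked for comparison.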

How the data were processed

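FOXA1 (6 libraries) or SETD7 (1 library) chromatin was sequenced in 2 cell lines, with a peak list each. The submitters' processing notes name the build hg19 and 4 tools: MACS2 (2.1.4), SAMtools (1.9), BWA (0.7.17-r1188) and FastQC (0.11.9). Their roles, any threshold and an input control are not stated there. The deposited score is a whole number per peak, the authors' own value, whose definition is not given. Groups were taken from sample titles. Coordinates were converted to count from 1.

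Regions, overlaps and score-matched shares were computed with Python 3.11.15, numpy 2.4.6, pandas 2.3.3 and scipy 1.17.1, and drawn with matplotlib 3.10.9. Region and overlap counts equalled those of bedtools 2.31.1, and the matched difference was tested on simulated data. Named regions were the 10 with most DMSO peaks, the 5 longest, for GSK2879552 and shSETD7 the 5 with fewest and 5 with most kept peaks against expectation, and the 5 with most SETD7 peaks. The regions and rules were chosen with earlier results of these data known. Peaks on chromosome Y were left out by the rule. Gene names, motifs and sequences need an hg19 annotation or genome, which was not used here. Alternatives changed the gap, the minimum, the overlap, the score matching or the list size, or left regions out. Depth is unknown, so precision is that of peak counts.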

Additional observations from a re-analysis of the deposited data

Results flagged for a closer look

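Chromosome Y, which the regions left out, held dense regions by the same gap and minimum in some lists. The SETD7 list of vehicle 22Rv1 cells had 7 and the vehicle FOXA1 list 6, while the LNCaP DMSO list had 0 among 464 peaks there. The other lists had 3 with GSK2879552, 1 with the combination, 3 with shSETD7 and 3 with shCTL. No comparison used them, and with 1 library per group the difference was not tested.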

How the results depend on the processing

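No paired analysis was possible because each group is 1 library. Of 168 alternatives, 112 left their value within its interval or within 1.5 times, 54 moved it and 2 reversed it. Those that leave out regions beside a peak-free stretch or the chromosome X array were chosen after seeing the data.

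The number of dense regions (85, with 779 peaks) was 3 with 31 peaks for a gap of 5000 bp, 976 with 9816 for 25000 bp, 381 with 2640 for at least 6 peaks, 9 with 120 for at least 12, and 2 with 18 in the higher-scoring 50% of the list. Shorter lists and other limits change these by construction. The few regions of the 5000 bp gap all lay inside regions set apart above, on chromosomes X, 10 and 11. Their kept differences were 27.7 points for GSK2879552, 5.60 for the combination, 64.1 for shSETD7, 38.3 for shCTL, 50.02 for vehicle cells and 50.7 for SETD7. The regions with at least 12 peaks included those set apart on chromosomes X, 2 and 10. There the differences were −3.56 for the combination, 16.3 for shCTL, 13.9 for vehicle cells and 18.3 for SETD7. Neither set thus shows how the other dense regions behave. For shSETD7 the difference was −0.712 with reciprocal 50% overlap and 6.55 within 1 kb. For SETD7 it was 1.83 with reciprocal overlap, 0.299 for the 25000 bp gap and 1.71 for at least 6 peaks. Without the 4 regions beside a peak-free stretch it was −1.08 for vehicle cells and −0.676 for SETD7, a reversal, and SETD7 peaks in dense regions numbered 43. Without the chromosome X array as well it was −0.672 for SETD7, also a reversal, −1.27 for shSETD7, −0.442 for shCTL and −2.05 for vehicle cells. The difference was above 0, and its interval excluded 0, in 18 and 4 of 18 alternatives for GSK2879552, 15 and 3 for the combination, 15 and 4 for shSETD7, 17 and 6 for shCTL, and 14 and 4 for vehicle cells.

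Of 30 alternatives for regions also dense in another list, 24 moved the count and 6 did not. For GSK2879552 (21), the combination (55), shSETD7 (8), shCTL (20) and vehicle cells (10), in that order, equal-sized FOXA1 lists gave 12, 18, 5, 8 and 6 of 28, the higher-scoring 50% 1, 2, 1, 1 and 1 of 2, a gap of 5000 bp 3, 3, 2, 1 and 2 of 3, and 25000 bp 351, 761, 139, 361 and 178 of 976. With at least 6 peaks in the other list there were 41 for GSK2879552 and 16 for vehicle cells. Without the 4 regions there were 4 for shSETD7 and 6 for vehicle cells. Depth, unknown here, limits every kept share.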
